A study of Mus musculus with 3 samples.

Results

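The long-range intergenic peaks are the GLI3 peaks of mouse forelimb buds that lie outside every protein-coding gene and far from any protein-coding transcription start site (TSS). A peak was included if its summit fell in no protein-coding gene body of GENCODE M21 and lay more than 100 kb from the nearest protein-coding TSS. The rule used position alone, on the autosomes, and took all listed peaks whatever their false discovery rate (FDR). Of 16854 autosomal listed peaks, 1902 met it (11.3%, 95% Wilson interval 10.8 to 11.8%). They were split into 1253 peaks at 100 to 300 kb from a TSS and 649 peaks at over 300 kb, the latter being the gene-desert class. The whole list holds 17149 peaks, of which 295 are not on autosomes.

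GLI3 binding was measured by ChIP-seq, in which DNA attached to a protein is precipitated and sequenced. The tissue was forelimb buds at stage E10.5 (32 to 35 somites) on a mixed strain background, dissociated before fixation. All 3 libraries, 2 ChIP replicates from 2 litters each and 1 input control, carry the genotype label wild type. The series states that their endogenous Gli3 is FLAG-tagged, and the tag is what the antibody recognises. No untagged ChIP was analysed here, and whole buds mix mesenchyme with ectoderm. Both replicates and the input went into 1 peak list, so no value below has a replicate error, and intervals cover counting error over peaks only.

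Hedgehog (HH) signalling patterns the limb bud from its posterior margin, where Sonic hedgehog is made. In cells without the signal GLI3 is processed to a repressor of HH target genes, and HH signalling blocks that processing. Limb genes are well known for enhancers far from their promoters, many of them inside gene deserts, long stretches with no protein-coding gene. A peak in such a stretch cannot be given to a target gene from its position, so each is described here by the protein-coding genes on both sides.

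The GLI family binds the 9-base sequence GACCACCCA, and a match below means this sequence with at most 1 mismatch, on either strand, in the window from 250 bp before to 250 bp after the summit. The first sequences are windows around an exact match in 5 of the highest-ranked peaks at 100 to 300 kb that had an exact match and an FDR under 0.05. They show the consensus in its natural context next to named genes, read from the GRCm38.p6 genome (mm10) on the strand of the match, with matches in capitals.
Sdk2 to Rpl38, rank 132, chr11:114567055-114567115, minus strand: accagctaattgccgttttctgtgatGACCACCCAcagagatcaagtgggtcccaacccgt
Asap1 to Adcy8, rank 162, chr15:64579147-64579207, plus strand: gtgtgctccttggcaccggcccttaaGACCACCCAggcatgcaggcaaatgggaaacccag
Tfap2c to Bmp7, rank 321, chr2:172675165-172675225, minus strand: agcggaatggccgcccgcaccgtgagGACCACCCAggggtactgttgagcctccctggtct
Trim52 to Slitrk1, rank 503, chr14:106373793-106373853, plus strand: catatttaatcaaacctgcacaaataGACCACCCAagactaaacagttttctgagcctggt
Trps1 to Eif3h, rank 2348, chr15:51628745-51628805, plus strand: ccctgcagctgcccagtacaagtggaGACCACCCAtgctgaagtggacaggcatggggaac

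The same windows for the 6 highest-ranked exact matches over 300 kb from a TSS show that the intact consensus is also found in deserts. Capitals mark matches as before.
Ccdc171 to Bnc2, rank 805, chr4:83976223-83976283, minus strand: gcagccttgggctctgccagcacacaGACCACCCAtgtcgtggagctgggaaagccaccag
Gm6569 to Adgrb1, rank 988, chr15:74156190-74156250, plus strand: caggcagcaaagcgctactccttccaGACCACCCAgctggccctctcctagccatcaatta
Npvf to Nfe2l3, rank 1594, chr6:50986629-50986689, minus strand: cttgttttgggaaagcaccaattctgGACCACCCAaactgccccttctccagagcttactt
Klf12 to Prr30, rank 1630, chr14:100735696-100735756, plus strand: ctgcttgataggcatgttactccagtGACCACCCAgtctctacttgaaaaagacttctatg
Ddhd1 to Gm15217, rank 2195, chr14:46005516-46005576, minus strand: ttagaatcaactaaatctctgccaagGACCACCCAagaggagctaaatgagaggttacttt
Tshz3 to Zfp536, rank 2377, chr7:37335422-37335482, minus strand: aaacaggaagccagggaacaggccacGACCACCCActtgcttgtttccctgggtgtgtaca

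The next set comes from a single short interval, between Ercc6l2 and Hsd17b3, where all 5 peaks with an FDR under 0.05 held a match. It shows how the motif varies within 1 locus. Substitutions are counted from 1 at the 5′ end of the consensus. The matches at ranks 24 and 465 were C7A, the one shown of 2 at rank 6080 was A2C, that at rank 7050 was C8T, and that at rank 7104 was exact.
Ercc6l2 to Hsd17b3, rank 24, chr13:63951348-63951408, plus strand: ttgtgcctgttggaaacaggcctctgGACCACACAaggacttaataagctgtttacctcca
Ercc6l2 to Hsd17b3, rank 465, chr13:63918203-63918263, minus strand: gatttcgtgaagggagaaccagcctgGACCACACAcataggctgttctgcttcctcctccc
Ercc6l2 to Hsd17b3, rank 6080, chr13:63980565-63980625, plus strand: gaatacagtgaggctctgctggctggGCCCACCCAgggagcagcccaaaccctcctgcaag
Ercc6l2 to Hsd17b3, rank 7050, chr13:63969765-63969825, minus strand: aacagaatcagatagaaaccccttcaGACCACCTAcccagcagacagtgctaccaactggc
Ercc6l2 to Hsd17b3, rank 7104, chr13:63927615-63927675, plus strand: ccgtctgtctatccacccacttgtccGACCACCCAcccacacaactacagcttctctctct

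For contrast, the central bases of the strongest peak of each class without a match in its window are shown in lower case throughout.
Zeb2 to Acvr2a, rank 87, chr2:45227387-45227487, plus strand: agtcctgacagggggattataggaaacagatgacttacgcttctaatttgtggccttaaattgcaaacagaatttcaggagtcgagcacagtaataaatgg
Tshz3 to Zfp536, rank 26, chr7:37464282-37464382, plus strand: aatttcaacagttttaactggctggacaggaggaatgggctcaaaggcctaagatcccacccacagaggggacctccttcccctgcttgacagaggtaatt

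Finally, the peak between Dok5 and Cbln4 had 28 matches in its window, 22 of them exact. Its sequence is a tandem array of a short unit that contains the consensus, and 209 bp of it are printed. Such arrays were uncommon: 5 of 1902 peaks had over 5 matches.
Dok5 to Cbln4, rank 4031, chr2:171863965-171864173, minus strand: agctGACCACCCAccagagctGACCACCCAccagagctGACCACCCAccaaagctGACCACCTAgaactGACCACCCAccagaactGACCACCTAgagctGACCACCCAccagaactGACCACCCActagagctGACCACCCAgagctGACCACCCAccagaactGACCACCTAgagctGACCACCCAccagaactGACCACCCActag

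Long-range peaks passed the FDR threshold of 0.05 somewhat less often than the rest of the list. In all, 7195 of 16854 autosomal peaks, 42.7%, had an FDR under 0.05. Among long-range peaks it was 715 of 1902, or 37.6% (Wilson 35.4 to 39.8%), against 43.3% of all other autosomal peaks, a difference of -5.75 percentage points (95% Newcombe interval -8.04 to -3.41). At 100 to 300 kb 486 of 1253 passed (38.8%), and over 300 kb 229 of 649 (35.3%). The 2 classes differed by -3.50 points with an interval of -8.003 to 1.10, which includes 0. The background for intergenic peaks nearer to genes, 10 to 100 kb from a TSS, was 43.8%.

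The height of the peaks changed little with distance. The log2 fold enrichment of ChIP over input, the authors' largest value within each peak, had a median of 2.18 (order-statistic interval 2.15 to 2.203) at 100 to 300 kb and 2.14 (2.12 to 2.18) over 300 kb. The other autosomal peaks had a median of 2.23 (2.23 to 2.24). Among peaks with an FDR under 0.05 the medians were 2.66 for long-range peaks and 2.70 for the others, and their intervals, 2.63 to 2.70 and 2.68 to 2.71, overlapped. The lowest log2 that passed the threshold was 2.3142 and the highest that did not was 2.3139. The threshold was therefore a cut on log2 itself, and it truncated both groups at the same value. The share that passed and the median log2 are for that reason not separate results. The strongest long-range peaks were well below the top of the list: the highest at 100 to 300 kb was log2 4.95 and the highest over 300 kb was log2 4.93, against 6.37 for the strongest autosomal peak. In the list, 8 long-range peaks ranked in the first 100. In the first 1000 there were 82, beside 912 other autosomal peaks. Both shares were below the 11.3% that long-range peaks make up of the autosomal list.

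**Figure D1:**
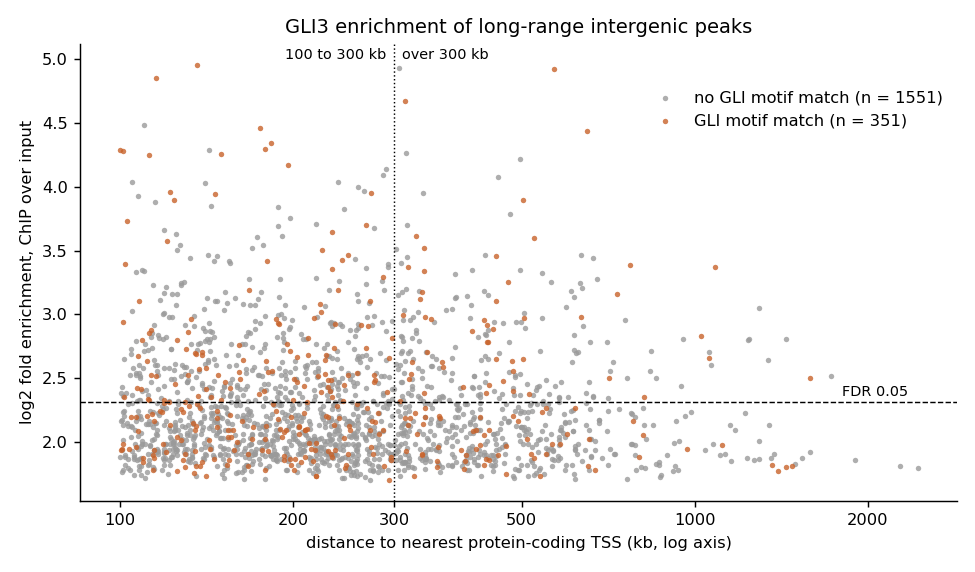
Each point is a long-range peak, with its distance to the nearest protein-coding TSS in kb on a log axis and its log2 fold enrichment of ChIP over input, and colour marks a GLI motif match in the window around the summit. Peaks above log2 4 occurred on both sides of the 300 kb line, up to 648 kb from a TSS, and the points thin out beyond 1000 kb.

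Distances ran from just over the limit to 2440 kb, with a median of 232 kb (quartiles 154 and 358 kb). There were 249 peaks more than 500 kb from a TSS and 38 more than 1000 kb away, of which 74 and 12 passed the FDR threshold. At the 100 kb limit, the nearest peaks kept were 100117 bp from Adgrl2 (rank 15075, log2 1.89) and 100197 bp from Ccnd2 (rank 130, log2 4.29), and the nearest left out were 99915 bp from Wls (rank 11302) and 99911 bp from Sntn (rank 7049). At 300 kb, the last peak of the nearer class was 299523 bp from Zfp703 (rank 6092) and the first of the desert class 300319 bp from Slc30a10 (rank 13246). The Ccnd2 peak, among the strongest described below, was therefore included by 197 bp.

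Deserts were poor in GLI3 peaks for their size. Sequence that met the position rule made up 31.2% of the ungapped autosomes, 746 Mb, and held 11.3% of the peaks. The density was 3.67 peaks per Mb at 100 to 300 kb and 1.60 peaks per Mb over 300 kb. Intergenic sequence 10 to 100 kb from a TSS had 4.18 peaks per Mb, intergenic sequence within 10 kb had 21.05, and protein-coding genes had 9.69. For peaks with an FDR under 0.05 the densities were 1.42 and 0.566 per Mb in the long-range classes and 1.83 per Mb at 10 to 100 kb. The step between 100 to 300 kb and over 300 kb was thus larger than that between 10 to 100 kb and 100 to 300 kb, in both sets.

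**Figure D2:**
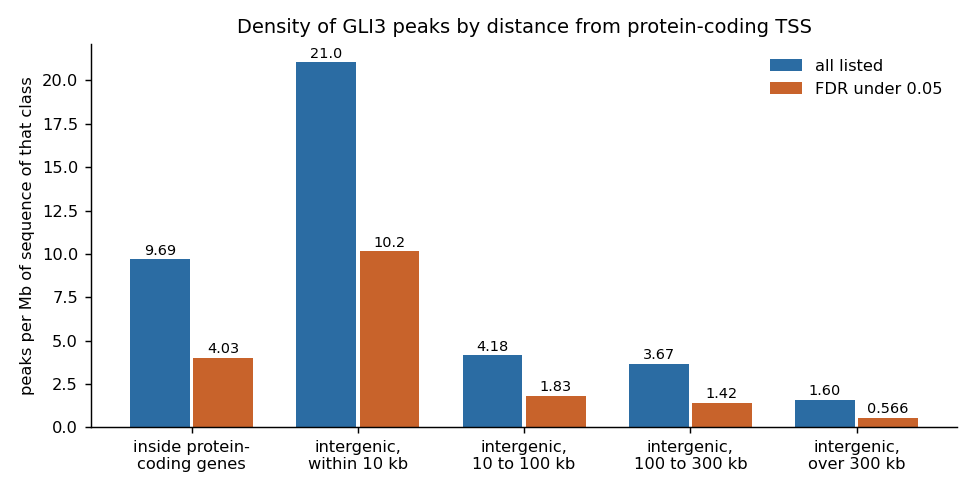
Bars give GLI3 peaks per Mb of ungapped autosomal sequence in 5 position classes, for all listed peaks and for those with an FDR under 0.05. Density is highest within 10 kb of a TSS, at 21.05 per Mb, and lowest over 300 kb away, at 1.60 per Mb.

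The GLI motif was more frequent at long-range summits than in their own surroundings. A match occurred in 351 of 1902 summit windows, 18.5% (16.8 to 20.3%), against 357 of 3804 windows of the same length 2 kb to either side, 9.38%, a difference of 9.07 points (7.13 to 11.1). At 100 to 300 kb the share was 19.2% against 9.94% in the surroundings, and over 300 kb 16.9% against 8.32%. The difference between these 2 classes, -2.28 points, had an interval of -5.81 to 1.44. GC content moved with the comparison: the median was 45.5% at the summits and 42.9% in the windows 2 kb away, and its part in the motif share was not tested.

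The intact consensus was rarer, and its share at summits was 9.83 times that in the surroundings, against 1.97 times for any match, a comparison that was not tested. In percentage points its excess was smaller, 2.79 (2.06 to 3.68). It was present in 59 long-range summit windows (3.10%, 2.41 to 3.98%) and in 12 of 3804 windows 2 kb away (0.315%). Over 300 kb the exact share was 3.08%, and at 100 to 300 kb 3.11%, nearly identical (difference -0.0309 points, interval -1.58 to 1.80). Peaks with an FDR under 0.05 had a match in 23.1% and an exact one in 4.48%, against 15.7% and 2.27% of the peaks that did not pass. The differences were 7.41 points (3.75 to 11.2) and 2.201 points (0.561 to 4.11), both with intervals above 0.

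Matches followed the rank of the peak. Among the 42 long-range peaks ranked 1 to 500 in the list, 19 had a match (45.2%, 31.2 to 60.1%), and among the next 40, down to rank 1000, 15 did (37.5%, 24.2 to 53.0%). The share was 21.1% from there to rank 2500 and 15.1% past rank 12000. Matches also lay near the summit. Leaving out windows with over 5 matches, the density of match middles within 50 bp of the summit was 4.25 times that from 150 bp to the window edge for peaks over 300 kb, and 2.70 times for those at 100 to 300 kb. The same ratio was 1.99 for intergenic peaks 10 to 100 kb from a TSS and 1.78 for all other autosomal peaks. Within 50 bp these ratios rest on 42, 83, 146 and 808 matches, respectively, and they were not tested against each other.

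**Figure D3:**
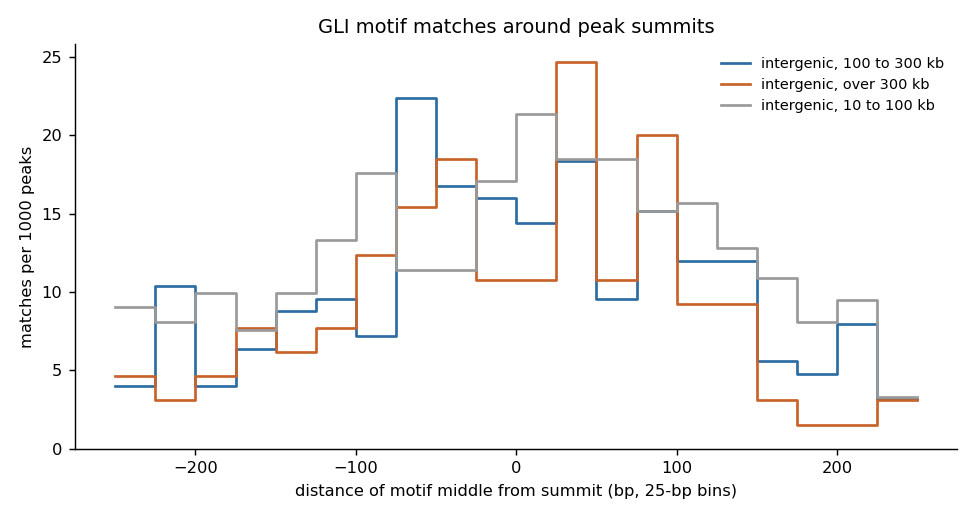
Lines give GLI motif matches per 1000 peaks in 25-bp bins of distance between the middle of the match and the summit, for 3 intergenic classes, without windows that hold over 5 matches. Counts are highest within about 100 bp of the summit in every class and low beyond 150 bp for peaks over 300 kb.

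Some 1-mismatch forms were far more frequent at summits than others. After the exact consensus, found in 57 of the 1897 windows without an array, the commonest were C7A (GACCACACA) in 46, A2C (GCCCACCCA) in 35 and A2G (GGCCACCCA) in 26. A5T (GACCTCCCA) was in 20 summit windows and in 8 of the 3804 windows 2 kb away, 5.01 times the share of the surroundings, and A2C was at 4.39 times. By contrast C7T (GACCACTCA) and C3G (GAGCACCCA) were each in 5 summit windows and 20 surrounding ones, 0.501 times the share there. All 3 changes at position 6, C6A, C6G and C6T, were also less frequent at summits than in the surroundings, at 0.802, 0.602 and 0.739 times the share there. These ratios rest on few windows each and were not tested.

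Long-range peaks held the motif about as often as all other autosomal peaks, but less often than intergenic peaks nearer to genes. The long-range share of 18.5% stood beside 17.8% of all other autosomal peaks, a difference of 0.664 points (-1.13 to 2.57). The exact consensus was more frequent at long-range peaks, 3.10% against 2.05% (difference 1.05 points, 0.319 to 1.95). Intergenic peaks 10 to 100 kb from a TSS had more matches, 21.96%, a difference of -3.51 points (-5.98 to -1.02), while their exact share of 3.46% differed by -0.361 points (-1.47 to 0.762). GC content differed strongly between these groups, with medians of 45.5% for long-range peaks, 50.1% for intergenic peaks 10 to 100 kb away and 57.9% for all others.

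A CpG island was found within 500 bp of the summit in 17.3% of long-range peaks, 20.4% at 100 to 300 kb and 11.2% over 300 kb (difference -9.18 points, -12.4 to -5.77), against 35.1% at 10 to 100 kb and 87.6% of intergenic peaks within 10 kb. Soft-masked repeat bases made up a median of 9.18% of the summit windows and 17.96% of the windows 2 kb away. The homeodomain core TAATTA was in 25.4% of long-range windows and 15.5% of their surroundings, a difference of 9.91 points (7.67 to 12.2). GC content was higher at the summits, as given above, and its part was not tested. At long-range peaks TAATTA was also more frequent than at intergenic peaks 10 to 100 kb away (20.2%, difference 5.29 points, 2.69 to 7.89) and than at all other peaks (10.9%), whose windows hold fewer A and T bases. TAATTA binds many homeodomain proteins and is no mark of any 1 factor.

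TGANTCA, with any base at N and so a looser pattern than the AP-1 site it includes, was also counted. It was in 13.3% of long-range windows and 14.9% of their surroundings (difference -1.60 points, -3.47 to 0.336). It was more frequent at long-range peaks than at all other autosomal peaks, 7.87% (difference 5.44 points, 3.92 to 7.09), which differ in GC content as given above, while intergenic peaks 10 to 100 kb away had 12.1% (difference 1.21 points, -0.855 to 3.28). The CTCF core motif, named for the insulator protein that anchors chromatin loops, was found in 7 of 1902 windows (0.368%) and 13 of 3804 surrounding ones (0.342%). These figures concern the letters in the windows and not the binding of either factor, which was not measured here.

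Intergenic with respect to protein-coding genes did not mean free of annotation. The summit lay inside a gene of another type for 314 long-range peaks (16.5%), 256 of them in a lincRNA gene, and within 1 kb of a TSS of such a gene for 85 (4.47%). The second share was 10.4% for intergenic peaks 10 to 100 kb away (difference -5.92 points, -7.53 to -4.32). If every annotated gene and TSS of any type were counted, only 261 peaks would remain more than 100 kb from a TSS and outside all genes. The highest-ranked long-range peak at a noncoding TSS was rank 652, between Rtl1 and Dio3 in an imprinted region (log2 3.57), and another was rank 1405, between Mtx2 and Hnrnpa3 beside the HoxD cluster (log2 3.18).

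The strongest peak at 100 to 300 kb was near Ptch1. Ptch1 encodes the HH receptor and is itself a target of HH signalling. The peak, rank 24 with a log2 of 4.95, spans 63950950 to 63952649 on chromosome 13, between Ercc6l2 and Hsd17b3, and its summit was 386 kb from the nearest Ptch1 TSS, with other genes in between. The interval was only 158 kb long, of which 73.9 kb met the distance rule, yet it held 9 long-range peaks, 5 with an FDR under 0.05. Those 5 had log2 values of 4.95, 3.73, 2.42, 2.33 and 2.33 and lay 353 to 415 kb from Ptch1. All 5 had a GLI match, as printed above, whereas 165 of the 715 long-range peaks that passed the threshold did.

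The peak next to Ccnd2, the gene of cyclin D2, was at rank 130 (log2 4.29, 1 match), and a second one at rank 6094 (log2 2.42) was 179 kb from the gene. The peak at rank 231 (log2 4.04, no match) was between Jun, an AP-1 component, and Fggy. Rank 37, the second strongest of the class (log2 4.85, 2 matches), was between Rybp, a Polycomb-associated protein gene, and Shq1, 115 kb from the Rybp TSS. Peaks were also numerous on the other side of Rybp, as described with the intervals below.

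Besides Jun, the transcription factor genes Zeb2, Runx2 and Ets1 flanked peaks among the 15 highest-ranked of this class. The peak 110 kb from Zeb2, a zinc finger repressor gene, was rank 87 (log2 4.48) and had no match, and it stood at the edge of a 3697 kb desert ending at Acvr2a. The peak between Clic5 and Runx2, which encodes the master regulator of bone-forming cells, was rank 142 (log2 4.25, 1 match), 112 kb from Clic5 and 435 kb from Runx2. Rank 174 (log2 4.14, no match) was 291 kb from Ets1, and Kirrel3 lay at the far end of its 1728 kb desert. Of these, the Runx2 peak alone had a match.

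Further peaks of the first 15 flanked genes of varied function. Rank 111 (log2 4.34) was between Enc1 and Gm10260, rank 128 (log2 4.29, no match) between Cd24a and Qrsl1, and rank 132 (log2 4.28) between Sdk2 and Rpl38 with 2 exact matches. Rank 138 (log2 4.26) was between Rtl1 and Dio3, rank 162 (log2 4.17, exact match) between Asap1 and Adcy8, and rank 202 (log2 4.09, no match) between Slc4a3 and Epha4. Epha4, which encodes an ephrin receptor expressed in limb mesenchyme, was 1682 kb from that peak. Of the 15, 10 had a match.

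In the desert class the strongest peak was between Tshz3 and Zfp536, both zinc finger transcription factor genes, on chromosome 7 (37464050 to 37464849). It was rank 26, with a log2 of 4.93 and no match, 766 kb from the Tshz3 TSS and 305 kb from that of Zfp536. Its summit lay 7.80 kb outside the Zfp536 gene body, so it was far from a TSS but beside a gene. The desert held 7 peaks with an FDR under 0.05, all of them over 300 kb from a TSS, and the one at rank 2377 had the exact consensus shown above. Rank 28 (log2 4.92, 1 match) was in the 1519 kb desert between Fat4, an atypical cadherin gene, and Intu, a gene needed for primary cilia, and was 569 kb from Intu. These 2 peaks were nearly as strong as the first of the nearer class.

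Rank 55 (log2 4.67, 1 match) was 313 kb from Sox4, a transcription factor gene of the limb list, in a window that was 75.6% repeats, and rank 91 (log2 4.44, 1 match) was 648 kb from Cited2, in the 2952 kb desert between Nmbr and Cited2. Rank 136 (log2 4.26, no match) was 314 kb from Meox2, a homeobox gene of limb muscle precursors. Rank 213 (log2 4.07, no match) was 454 kb from Sall1, a zinc finger gene expressed in the limb bud, and rank 318 (log2 3.90, 1 match) was between Kcnj2 and Sox9, 1213 kb from Sox9, the key gene of cartilage formation. Rank 597 (log2 3.62, 1 match) was 351 kb from Mycn.

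Other peaks of the first 15 in deserts were at rank 149 between Nox3 and Arid1b (log2 4.21), rank 274 between Matn1 and Ptpru (log2 3.95), rank 418 between Tmem38b and Zfp462 (log2 3.78) and rank 499 between Hace1 and Grik2 (log2 3.70). None of these 4 had a match. Rank 614 between 1810013L24Rik and Grin2a (log2 3.601) was an array with 12 matches. Ranks 723 and 727 (log2 3.52 and 3.51) were both between Ebf1 and Clint1, and the first had a match. In all, 7 of the 15 had a match, against 10 of 15 in the nearer class, which was not tested.

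Long-range peaks were counted by the interval in which they lay. An interval is here the stretch between neighbouring protein-coding gene bodies, and 1788 autosomal intervals contained sequence that met the rule. Of these, 636 held at least 1 long-range peak (35.6%) and 341 at least 1 with an FDR under 0.05. There were 284 intervals with 1 peak, 114 with 2 and 238 with 3 or more, and 25 intervals with 10 or more held 371 peaks. Of the peaks with an FDR under 0.05, 360 of 715 were in the 75 intervals that held the most of them. Intervals differ widely in length: the 263 over 1 Mb hold 417 of the 746 Mb that met the rule. No even spread over this sequence was computed, so these counts do not show whether the peaks are gathered. Another listed peak lay within 10 kb for 717 of the 1902 (37.7%), a smaller share than the 43.3% of intergenic peaks 10 to 100 kb from a TSS and the 52.5% of all other autosomal peaks. Counting summits within 2 kb of each other once left 1644.

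Larger deserts were not richer per Mb of sequence. In intervals over 1 Mb the density was 1.3998 long-range peaks per Mb of sequence that met the rule, and in those over 2 Mb 0.812 per Mb, against 2.55 per Mb in all intervals. Larger intervals were less often empty, however: of 86 intervals over 2 Mb, 28 held no long-range peak, against 1152 of all 1788 intervals. The largest without one, chosen after its values were seen, was the 3820 kb desert between Dsel and Cntnap5a, followed by those on both sides of Pcdh7 (3676 and 3597 kb), which encodes a protocadherin.

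The 10 intervals with the most peaks under the FDR threshold were headed by 4 with 12 or 13 such peaks. Between Thap1 and Zfp703 on chromosome 8, 13 of 23 long-range peaks passed, with log2 values from 2.33 to 3.85, the strongest 144 kb from Zfp703, a zinc finger co-repressor gene. None of these 23 had a GLI match, whereas 6 of the 9 near Ptch1 did. Between Npvf and Nfe2l3 on chromosome 6, 13 of 21 passed, with a median log2 of 2.59 and a match in 7 of the 21. Between Rps24 and Zmiz1 on chromosome 14, 12 of 17 passed (median log2 2.96), 8 of them over 300 kb from a TSS.

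The interval between Mtx2 and Hnrnpa3 on chromosome 2 adjoins the HoxD cluster, whose genes pattern the limb along its length and across its digits. In it 12 of 22 long-range peaks passed the threshold, with log2 values from 2.35 to 3.29. They were 249 to 834 kb from the TSS of Hoxd11, and 2 of the 12 had a match. On the other side of the cluster, between Atp5g3 and Lnpk, peaks at rank 1913 (log2 3.03) and rank 2523 (log2 2.89) were 402 and 287 kb from Hoxd13, and neither had a match. Both flanks of the HoxD cluster are known for long-range limb enhancers.

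The other 6 intervals each had 8 or 9 peaks with an FDR under 0.05. The interval between Zfp608 and Gramd3 had 9 of 18, and those between Nr2f2 and Gm10295 and between Med13l and Tbx3 had 8 of 16 and 8 of 15. Nr2f2 encodes a nuclear receptor, and Tbx3 a T-box factor of the limb margins. The intervals between Adgrl2 and Adgrl4 and between Cd83 and Jarid2 had 8 of 15 and 8 of 14. Between Prok2 and Rybp 8 of 11 passed, with log2 values up to 3.95, and 3 of those 8 had a match. By density the Prok2 to Rybp interval had 22.2 such peaks per Mb of sequence that met the rule and the Adgrl2 to Adgrl4 interval 3.56, while the interval near Ptch1 reached 67.7.

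**Figure D4:**
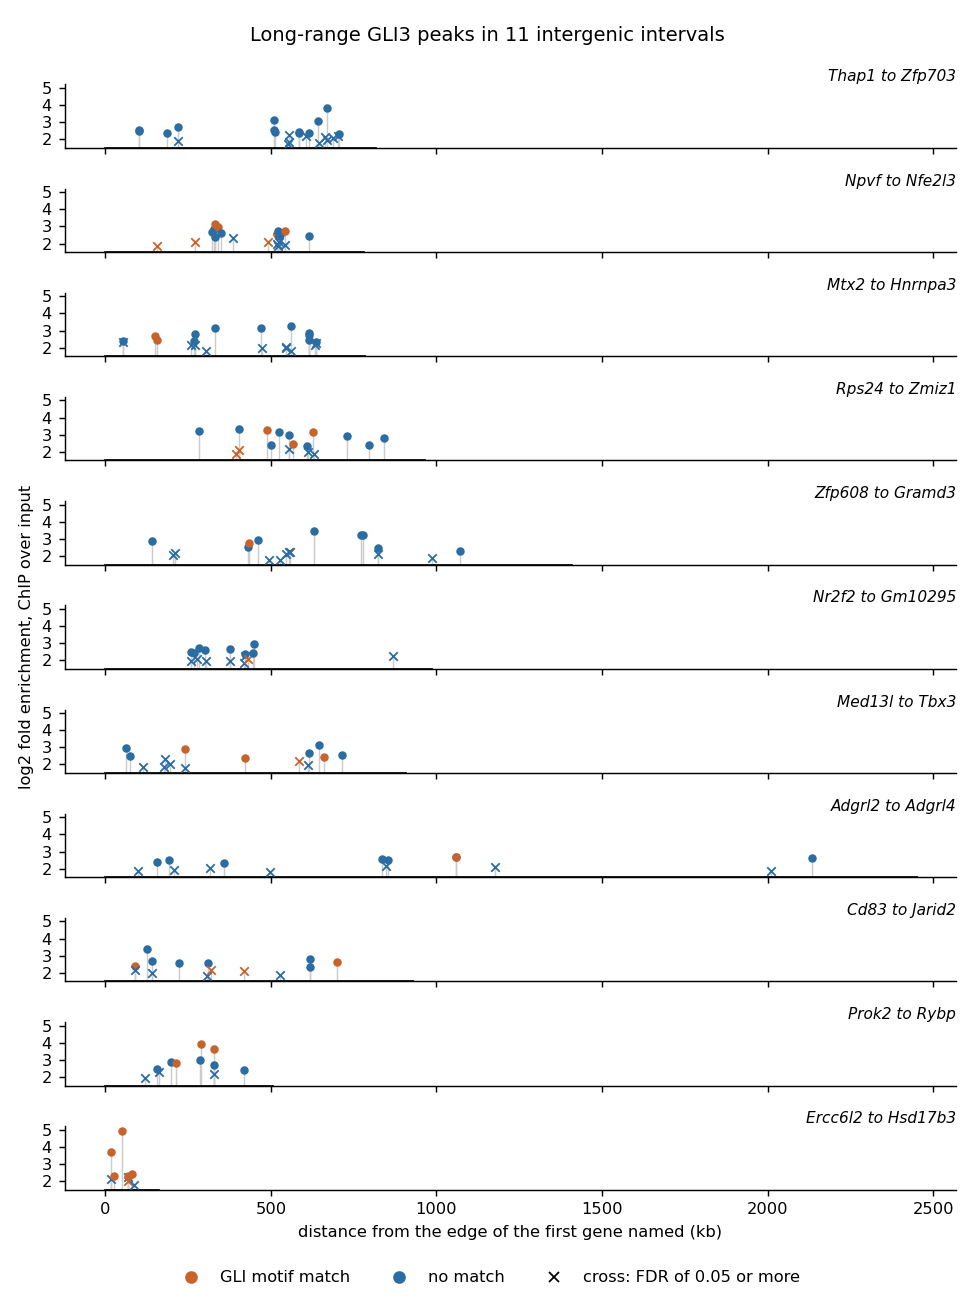
Each row is an intergenic interval drawn to scale as a black line from the edge of the first gene named, with the log2 fold enrichment of its long-range peaks on the vertical axis. Filled points have an FDR under 0.05, crosses do not, and orange marks a GLI motif match; the 10 intervals with the most peaks under the threshold are followed by the interval near Ptch1, and no orange point is seen between Thap1 and Zfp703.

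The genes at the ends of the intervals were compared with 5 gene lists. A gene of the HH pathway or its targets flanked 101 long-range peaks (5.31%, 4.39 to 6.41%), and a limb patterning transcription factor gene flanked 318 (16.7%, 15.1 to 18.5%). The same shares were 3.61% and 9.01% for intergenic peaks 10 to 100 kb away. Of intervals over 200 kb, 1.77% and 5.59% were flanked by such genes. Other developmental transcription factor genes flanked 218 long-range peaks (11.46%), signalling ligands and antagonists 104 (5.47%) and neural adhesion genes 195 (10.3%). Among peaks 10 to 100 kb away these shares were 8.16%, 5.12% and 1.28%, and among intervals over 200 kb they were 7.43%, 5.004% and 8.46%.

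Set against the sequence available, the lists differed more. Intervals flanked by an HH gene had 9.67 long-range peaks per Mb of sequence that met the rule, against 2.45 in all other intervals. For limb patterning transcription factors the densities were 7.49 and 2.25 per Mb, for other developmental transcription factors 4.13 and 2.43, and for signalling ligands and antagonists 3.21 and 2.52. Neural adhesion genes had 1.19 per Mb beside them and 2.93 elsewhere. Their 125 intervals make up 21.9% of the sequence that met the rule, and all intervals over 1 Mb together had a density close to theirs, as given above, so that interval size moved with this value and its part was not tested. For peaks with an FDR under 0.05 the order was the same, from 4.12 per Mb beside HH genes to 0.397 beside neural adhesion genes. The lists were drawn up with results of these data known, so these densities are descriptions and were given no test.

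**Figure D5:**
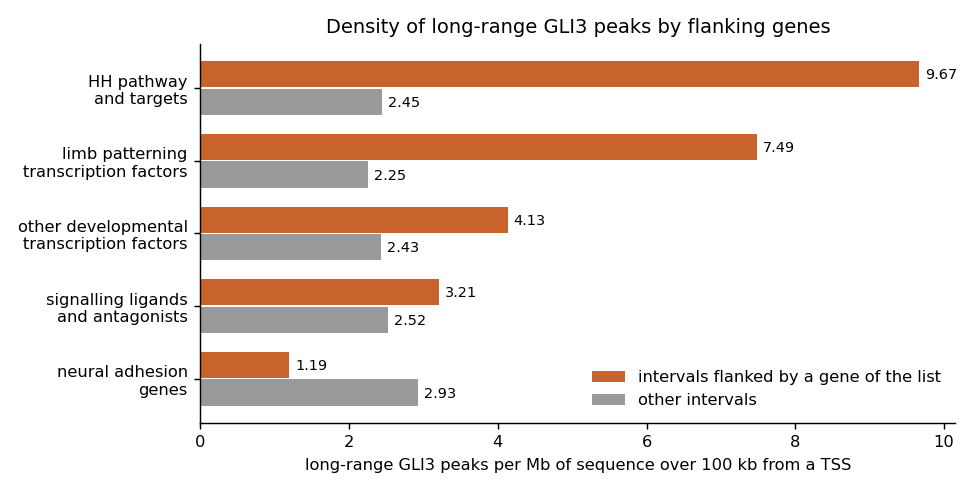
Bars give long-range peaks per Mb of sequence over 100 kb from a protein-coding TSS, in intervals flanked by a gene of each list and in all other intervals. The density beside HH genes is 9.67 per Mb and beside neural adhesion genes 1.19 per Mb, while the other intervals lie between 2.25 and 2.93.

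Of the 373 peaks flanked by a gene of the HH or limb list, 43.4% passed the FDR threshold, close to the 42.7% of all autosomal peaks, and of the remaining long-range peaks 36.2%. For the HH list alone the shares were 42.6% and 37.3%, and for the limb list alone 43.7% and 36.4%, so that both flanked shares were also near the 42.7% of all autosomal peaks. The counting intervals of the differences were 1.76 to 12.9 points for the joined list, -4.21 to 15.2 for the HH list and 1.49 to 13.3 for the limb list. As with the densities, the choice of the lists makes these values descriptions only. The motif was about as frequent in both, 19.6% (15.9 to 23.9%) and 18.2% (16.3 to 20.2%). When flanking was not required, 7.55% of long-range peaks that passed lay within 500 kb of a TSS of an HH list gene (5.83 to 9.72%), against 5.055% of those that did not (3.95 to 6.45%) and 4.52% of the other autosomal peaks that passed (4.04 to 5.06%). Within 250 kb the order of the last comparison was the other way, with 3.08% of long-range peaks that passed (2.04 to 4.61%) and 3.32% of the other autosomal peaks that passed (2.91 to 3.78%). The rule bars long-range peaks from the first 100 kb around any protein-coding TSS, where the other peaks may lie. It thus shaped the comparisons with other autosomal peaks at both distances. These differences were not tested.

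Of the 18 HH list genes that border sequence meeting the rule, 15 had a long-range peak and 12 had one with an FDR under 0.05. Among other developmental transcription factors 34 of 93 bordering genes had one that passed, and among neural adhesion genes 32 of 80. For signalling ligands and antagonists it was 19 of 63. Of all 1788 intervals with such sequence, 341 held one, but a gene can border more than 1 interval. These counts were not tested. Mycn, a growth-promoting HH target, had 8 of 19 long-range peaks under the threshold, the strongest at rank 588 (log2 3.63) 125 kb from the gene. Tbx3 had 8 of 15, the strongest at rank 1626 (log2 3.11, 259 kb away). Gas1, which encodes an HH co-receptor, had 6 of 13 on its 2 sides (best rank 599, log2 3.61, 233 kb away), and Sall1 had 5 of 13. Osr1, a zinc finger gene of early limb mesenchyme, had 4 of 6, and Ccnd2 2 of 4.

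The HH genes Bmp2, Gli3 and Cdk6 flanked 5, 3 and 1 long-range peaks, none with an FDR under 0.05. Bmp4, a secreted growth factor gene, had 1 of 5 (rank 926, log2 3.40, 215 kb away). The neighbouring interval between Ddhd1 and Gm15217 held 5 more under the threshold within 564 kb of it, among them the exact consensus at rank 2195 shown above, 385 kb away. Hand2, whose product and GLI3 restrain each other across the early limb bud, had 1 of 5 (rank 4372, log2 2.59, 405 kb away). Jag1, a Notch ligand gene, had 1 of 3 (rank 2636, log2 2.86), Sall3 2 of 4 (rank 2735, log2 2.84) and Gli2, a GLI family gene itself, 1 of 1 (rank 4741, log2 2.55, 228 kb away).

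Of the limb patterning transcription factor genes, 42 flanked a long-range peak with an FDR under 0.05, of 69 that border sequence meeting the rule. For other developmental transcription factors it was 34 of 93, for neural adhesion genes 32 of 80 and for signalling genes 19 of 63. These counts were not tested. Tbx3, Sall1, Osr1, Sall3 and Hand2, described above, are on both the HH and the limb list. Tshz3 had the most peaks under the threshold (11 of 18), followed by Nr2f2 (9 of 21) and Sox9 (8 of 27). The strongest peak beside Sox9 was log2 3.90. Shox2, a homeobox gene of the proximal limb, had 6 of 11 (best rank 742, log2 3.51, 556 kb away), and Tbx18 6 of 11, 3 of the 6 with a match. Meis1, a proximal limb homeobox gene, had 5 of 14 (rank 945, log2 3.40), Irx3 5 of 8 and Irx5 4 of 7, of which the peak at rank 1619 lies between the pair.

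Sox11 had 5 of 11, and Sox4, Tfap2c, Tbx15, Bcl11a, Sox5 and Hmga2 each had 4. The strongest of these beside Sox4 (rank 55), Tfap2c (rank 321, log2 3.89, exact consensus, between Tfap2c and Bmp7) and Tbx15 (rank 487, log2 3.71) were the highest. Ebf1, Ebf2, Emx2, Hes1, Pax1, Id2 and Runx1 had 3 each, and Runx2, Trps1 and Zfhx3 had 2 each. Nr2f1, Pbx3, Tshz1, Dlx2, En1, Bcl11b, Sox6, Hey1, Irx1 and Tbx5 had 1 each. Tbx5, which is required for the forelimb to form, had 1 weak peak (rank 6965, log2 2.33, 174 kb away).

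The peaks farthest from any TSS were weak. The farthest was 2440 kb from Pcdh20, between Pcdh20 and Pcdh9, at rank 16482 (log2 1.80). The next lay 2275 kb from Cdh20 (rank 16297, log2 1.82, between Cntnap5b and Cdh20) and 1898 kb from Pik3c3 (rank 15602, log2 1.86, between Celf4 and Pik3c3). The fourth, 1728 kb from Sel1l in the desert it shares with Flrt2, was the only 1 of the 5 with an FDR under 0.05 (rank 4981, log2 2.52). Repeats made up 60.5% of its window, and its −log10 Poisson p was at the cap of 100, the largest value the list gives. The fifth was 1587 kb from Efnb2 (rank 14365, log2 1.92), and none of the 5 had a match. A peak just beside the fifth, at rank 5174 and log2 2.50, had the exact consensus 118 bp from its summit.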

How the data were processed

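GLI3-FLAG ChIP-seq of E10.5 forelimb buds was analysed from 1 deposited peak list. The authors aligned reads with Bowtie2 2.2.5 to mm10 (submitters' processing notes) and called peaks with CisGenome from both ChIP replicates against input; its window settings are not given in the sources used here. The list gives the authors' FDR (a q-value), log2 fold enrichment, T score (which sets the rank) and −log10 Poisson p, capped at 100. It holds no counts, so the depth of each library is unknown here. Peaks with an FDR of up to 1 are listed, and 0.05 is the study's threshold.

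Summits were placed against GENCODE M21 genes and GRCm38.p6 sequence with Python 3.11.15, numpy 2.4.6, pandas 2.3.3, scipy 1.17.1 and matplotlib 3.10.9. Scripts were tested on simulated data. CpG islands were 200 bp windows with GC over 0.5 and a CpG ratio over 0.6. No p-value was computed. Named genes flank the 15 highest-ranked peaks of each class, the 5 farthest, the 10 intervals with most peaks under the threshold, or are HH or limb list genes flanking such a peak; genes beside printed sequences and others were chosen after their values were seen. The peaks and gene lists were chosen with earlier results of these data known. Alternatives were other annotations, thresholds, distances, windows and flank rules. Results for some items are not reported here.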

Additional observations from a re-analysis of the deposited data

How the results depend on the processing

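No paired analysis was possible because both replicates share 1 joint peak call, and for the same reason neither could be left out. The number of long-range peaks, 1902, fell to 261 with every annotated gene and TSS, to 715 at an FDR under 0.05, to 474 at an FDR under 0.01 and to 1131 with a distance over 200 kb; each of these rules admits fewer peaks by construction. At an FDR under 0.05, the density relative to intergenic sequence 10 to 100 kb from a TSS was 0.524 in place of 0.610, and the share flanked by an HH or limb gene was 22.7% in place of 19.6%. That share was 10.99% when only the gene of the nearest TSS was counted. The difference in median log2 fold enrichment from other peaks, -0.06, was -0.0404 at an FDR under 0.05 and -0.0356 for peaks of 300 to 600 bp, where the intervals of both medians overlapped. The FDR threshold cuts both groups at the same log2, as given above. The causes were not tested. The other 16 alternatives kept their direction, but some values moved. The difference in the share under the FDR threshold was -9.11 points with every annotated gene, 2718 peaks lay over 50 kb from a TSS, and the GLI motif difference of 9.07 points was 13.7 at an FDR under 0.05 and 2.79 for the exact consensus. The 16 include leaving out motif arrays and taking only peaks with no other summit within 3 kb, both chosen after seeing the data. Without counts per library, no statement can be made on replicate error or on peaks under the detection limit.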
